A study of Homo sapiens with 24 samples.

Results

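Translation initiation factors outside the control of eIF2 were followed in HepG2 cells treated with bortezomib, nelfinavir and ISRIB. The members were all genes of the count table whose symbol begins with EIF, leaving out the eIF2 subunits (EIF2S genes), the eIF2 kinases (EIF2AK), the eIF2B exchange factor (EIF2B), the eIF4E-binding proteins (EIF4EBP) and antisense genes. By this rule 39 of 18915 genes were members, and 37 of them were counted deeply enough to be tested, among 12685 genes tested in all.

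HepG2 is an established human hepatoma line. Cells were treated for 10 h with DMSO as vehicle, 50 nM ISRIB, 20 µM nelfinavir, 50 nM bortezomib, 50 nM bortezomib with 20 µM nelfinavir, or 50 nM bortezomib with 50 nM ISRIB, and each of the 6 groups was sequenced as 4 replicate libraries. Bortezomib blocks the proteasome, nelfinavir (an HIV protease inhibitor) raises the phosphorylation of eIF2α, and ISRIB acts on eIF2B so that this phosphorylation has little effect on initiation. The labels call the replicates biological without saying what separated them, so p-values measure only the spread between these libraries of 1 cell line.

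Initiation on most mRNAs begins when the cap-binding complex eIF4F (eIF4E, the scaffold eIF4G and the helicase eIF4A) recruits a small ribosomal subunit that already carries eIF3, eIF1, eIF1A, eIF5 and the initiator tRNA bound to eIF2. The complex scans to a start codon that eIF1, eIF1A and eIF5 help to select, and eIF5B then joins the large subunit. In stressed cells initiation is best known to be limited at eIF2 and at the availability of eIF4E, whereas the remaining factors are usually treated as constant machinery.

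Total counts per library ran from 5154533 to 6943164. The labelled cell line was matched by its markers, since all 12 hepatocyte-lineage genes looked up were counted (ALB, for albumin, at 1561 to 3531 CPM, counts scaled to a common library size), while the defining leukocyte, fibroblast and endothelial genes PTPRC, CD3E, COL1A2, DCN, LUM, PECAM1, VWF and CDH5 have no count row. Mitochondrially encoded genes took a share of the counts that moved with bortezomib, with 21.5% ± 1.32 in DMSO and 33.8% ± 1.20 in bortezomib (SD, n = 4 each), and its part in the results below was tested only by leaving those genes out. Of the nuclear counts, the members took 0.962% ± 0.00390 (SD, n = 4 here and next) in DMSO and 1.18% ± 0.00947 in bortezomib, which became 1.16% ± 0.0312 when nelfinavir was added and 1.03% ± 0.0296 when ISRIB was added. In such bulk libraries a change of mRNA per cell and a change in the mixture of cells cannot be told apart, and levels below are in CPM scaled with TMM factors, which set each gene against the bulk of the other genes.

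Libraries of the co-treated groups did not all lie together. After subtraction of the group means, 1 axis held 34.3% of the remaining variance of 6436 well-counted genes, against 8.47% on the next axis. Its highest scores belonged to library 3 of bortezomib with ISRIB (0.506) and to libraries 3 (0.414) and 4 (0.296) of bortezomib with nelfinavir, and its lowest to libraries 1 (-0.328) and 2 (-0.382) of bortezomib with nelfinavir. The counts of members below are therefore also given without these libraries, a choice made after the data were seen. The share of all genes called was not computed for those fits, so whether such a count exceeds it cannot be judged.

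Genes were tested by quasi-likelihood in edgeR, with p-values adjusted by Benjamini-Hochberg over all 12685 of them, and a gene is called higher or lower at an adjusted p under 0.05. Bortezomib against DMSO raised 21 of the 37 members and lowered 4, so that 67.6% were called, where 53.4% of all genes were called (27.6% higher and 25.8% lower). The median log2 fold change over the 14 eIF3 genes (EIF3C and EIF3CL, at very low counts, included) was 0.58 and that of all genes 0.0018. The groups did not overlap for 28 of the 37 members, or 50.1% of all genes. The directions below are relative to the bulk of the genes. With library totals alone in place of TMM factors the median of all genes was -0.49, 19.2% of the called genes were higher in place of 51.7%, and 7 members were called higher and 14 lower. On that scale the calls of EIF1, EIF5, EIF6, EIF2A, EIF3G, EIF3H and EIF3I as higher and of EIF1AX, EIF4E, EIF4E2 and EIF4G1 as lower were kept, while 10 members called on at least 1 of the scales turned from above zero to below it.

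The 6 genes grouped under start codon selection and subunit joining, with EIF1AD placed there by its name, were all called with bortezomib. Of them 5 were higher and 1 lower, or 2 higher and 2 lower on library totals, where 53.4% of all genes were called on the TMM scale. The calls of EIF1AD and EIF1B were not stable to leaving out single libraries. EIF1, which guards against initiation at poor start codons, had 404, 419, 422 and 421 CPM in the DMSO libraries and 1184, 1230, 1182 and 1322 CPM in the bortezomib libraries. The groups lay far apart, and EIF1 was 2.95-fold higher (log2 1.56 ± 0.069 SE, adjusted p = 4.11e-19, edgeR). It lies at chr17:39845137-39848920 on the plus strand (GRCh37).

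EIF5, which triggers GTP hydrolysis by eIF2 once a start codon is found and works against EIF1 in the choice of that codon, rose beside it. Its levels were 184, 190, 186 and 197 CPM in DMSO and 390, 414, 455 and 474 CPM in bortezomib, again without overlap. The change was 2.29-fold (log2 1.19 ± 0.076 SE, adjusted p = 5.73e-15, edgeR). EIF1 and EIF5 were the only members called more than 2-fold higher, a size that 10.3% of all genes reached.

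The sequences around the start codons of these genes are shown because the mRNA of EIF1 is itself known for a start codon in a weak context. Each is given from 9 bases before to 4 bases after the start codon, which is in capitals, from the MANE transcripts of the GENCODE annotation on GRCh37.
EIF1: tcgtatcgtATGtccg
EIF1B: tagtatcgcATGtcca
EIF5: taagccaaaATGtctg
A strong context has a purine 3 bases before the start codon and a G right after it. EIF1, EIF1B and EIF3B had neither, which made 3 of the 34 members with a sequence, where 1118 of 18494 genes had neither. Both bases were present in 38.2% of the members and in 43.6% of all genes, so that a strong context was no more frequent in the members.

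Among the remaining genes grouped with the start codon factors the changes were smaller. EIF5B, the GTPase that joins the subunits, was the member with the highest counts and rose 1.25-fold on the TMM scale (log2 -0.17 on library totals; 1057 ± 15.8 CPM in DMSO, 1324 ± 31.5 in bortezomib, SD, n = 4 each; adjusted p = 9.39e-05, edgeR). EIF1AX, which encodes the eIF1A that works beside EIF1 in scanning, fell in the opposite direction. Its DMSO libraries had 163, 156, 151 and 150 CPM and its bortezomib libraries 100, 106, 114 and 108 CPM, 1.45-fold lower and without overlap (adjusted p = 1.25e-05). EIF1AD, named for its eIF1A domain, was 1.56-fold higher at 16.7 CPM in DMSO (adjusted p = 0.0119), a call lost without bortezomib library 1 (adjusted p = 0.0695). EIF1B, a close relative of EIF1, was 1.36-fold higher (adjusted p = 0.0406), and its call was lost on leaving out any 1 library but DMSO library 3 (adjusted p from 0.0749 to 0.145).

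The eIF3 complex is the large scaffold that holds the small subunit to the mRNA and to eIF4G. All 14 eIF3 genes tested had a positive log2 fold change with bortezomib, including EIF3C and EIF3CL, whose counts were too low to judge. Of the 14, 9 were called higher and none lower, where 27.6% of all genes were higher and 25.8% lower. On library totals 9 were positive, 3 called higher (EIF3G, EIF3H and EIF3I) and 2 lower (EIF3D and EIF3K). EIF3H, EIF3I and EIF3G were the most changed of the called subunits, with 1.90-, 1.88- and 1.72-fold higher levels (log2 0.93 ± 0.16, 0.91 ± 0.076 and 0.79 ± 0.10, SE). For EIF3I the DMSO libraries had 136, 137, 135 and 131 CPM and the bortezomib libraries 258, 240, 245 and 274 CPM (adjusted p = 4.52e-12, edgeR). These libraries did not overlap.

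EIF3A, the largest eIF3 subunit, had 644, 586, 578 and 541 CPM in DMSO and 1014, 1032, 809 and 814 CPM in bortezomib, 1.56-fold higher (adjusted p = 1.44e-05). EIF3B, EIF3F, EIF3J, EIF3L and EIF3M were called 1.36- to 1.51-fold higher. EIF3D (log2 0.24 ± 0.10, adjusted p = 0.0533), EIF3E (0.55 ± 0.26, adjusted p = 0.0766) and EIF3K (0.077 ± 0.099, adjusted p = 0.537) did not pass the test. EIF3D and EIF3E were both called when only the 2 groups entered the model (adjusted p = 0.0141 and 7e-06).

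EIF3C and EIF3CL could not be judged, because their last 500 bases are identical and both were counted at under 1 CPM in DMSO. Reads shared by the pair may have been dropped or split, and the counting rule is not given in the sources used here. Of the 38 members searched, 17 had a near copy elsewhere in the annotation and 6 of those a copy with its own count row. EIF5A and EIF5AL1 were such a pair, with 97% identity over 500 bases.

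In the group of eIF4F, the cap-binding complex, and its cofactors, 3 of 11 members were higher and 3 lower. That was 54.5% called, near the 53.4% of all genes (27.6% higher and 25.8% lower). On library totals 8 were lower and none higher, where 6265 of the 12685 genes were called lower and 1490 higher. EIF4E, the cap-binding protein, had 56.7, 57.4, 60.6 and 62.1 CPM in DMSO and 33.1, 38.6, 36.5 and 42.8 CPM in bortezomib. All bortezomib libraries were below all DMSO libraries, 1.57-fold lower (log2 -0.65 ± 0.12 SE, adjusted p = 1.59e-05, edgeR). EIF4G1, the main eIF4F scaffold, fell 1.30-fold from 333, 329, 306 and 308 CPM to 271, 246, 235 and 225 CPM (adjusted p = 8e-05).

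EIF4E2, a cap-binding relative of EIF4E that does not join eIF4G and represses its targets, was 1.23-fold lower (adjusted p = 0.024), a call lost without DMSO library 1 (adjusted p = 0.0598) or 4 (adjusted p = 0.0656). In contrast EIF4G2, an eIF4G relative without the eIF4E-binding part that supports initiation apart from the cap, rose 1.33-fold on the TMM scale (log2 -0.09 on library totals) from 569, 633, 699 and 690 CPM to 825, 830, 845 and 934 CPM (adjusted p = 3.22e-05). EIF4B, a cofactor of the eIF4A helicase, rose 1.70-fold (68.1 ± 7.10 CPM in DMSO, 115.6 ± 11.8 in bortezomib, SD, n = 4 each; adjusted p = 0.000534). The helicase EIF4A1 itself was 1.19-fold higher (adjusted p = 0.00816; log2 -0.25 on library totals), and this call was lost without bortezomib library 1 (adjusted p = 0.0796), 2 (0.0649) or 4 (0.153) or DMSO library 2 (0.05), with upper-quartile factors (0.0823) and with no filter (0.15).

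EIF4A2, EIF4A3, EIF4G3, EIF4H and EIF4ENIF1 were not called in bortezomib on the TMM scale. On library totals all but EIF4H were called lower (edgeR). The log2 values there were -0.51 for EIF4A2 (adjusted p = 0.000516), -0.43 for EIF4A3 (0.0069), -0.43 for EIF4G3 (0.0322) and -0.55 for EIF4ENIF1 (0.0122). The 95% intervals of the log2 fold changes on the TMM scale reached from -0.27 to 0.25 for EIF4A2, from -0.23 to 0.37 for EIF4A3 and from -0.30 to 0.43 for EIF4G3. They were wider for EIF4H, from -0.71 to 0.66, so that a change of the size seen for EIF4E was not detectable there. EIF4E3 did not pass the filter, with 20 counts in 11 of the 24 libraries, and neither did EIF1AY.

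Outside these complexes, EIF2A, an initiator tRNA carrier that is no part of eIF2, rose 1.81-fold with bortezomib (52.7, 49.8, 50.5 and 46.2 CPM in DMSO; 98.5, 111.3, 75.4 and 74.3 CPM in bortezomib; adjusted p = 4.54e-06, edgeR). EIF2D, another carrier of initiator tRNA, was at log2 -0.34 ± 0.21 (adjusted p = 0.173). It was called lower on library totals (-0.84, adjusted p = 0.000824), with no filter (-0.42, 0.0379) and in a model of only the 2 groups (-0.37, 0.0233). EIF6, which keeps the large subunit from joining too early, rose 1.82-fold from 245, 272, 266 and 278 CPM to 478, 482, 447 and 523 CPM (adjusted p = 2.64e-10). EIF5A, the hypusinated factor that helps ribosomes through difficult peptide bonds, rose 1.51-fold (adjusted p = 4.86e-05). Its relative EIF5A2 rose 1.58-fold (adjusted p = 0.00904), from 6.45 ± 0.866 to 10.2 ± 2.93 CPM (SD, n = 4 each), and lost its call without bortezomib library 3 (adjusted p = 0.114) or DMSO library 2 (0.056).

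The effect of bortezomib was measured 3 times in separate libraries: alone, in the presence of nelfinavir and in the presence of ISRIB. Bortezomib with nelfinavir against nelfinavir raised 23 members and lowered 2, or 67.6% called against 57.1% of all genes (28.7% higher and 28.4% lower). With ISRIB against ISRIB, 16 were higher and 3 lower, or 51.4% called against 54.7% of all genes (29.1% higher and 25.6% lower). On library totals these counts were 8 higher and 9 lower over nelfinavir and 3 higher and 19 lower over ISRIB, and 19.6% and 19.3% of all called genes were higher there, in place of 50.3% and 53.2%. Over the 3 comparisons 15 of the 37 members (40.5%) were called higher each time, where 17.3% of all genes were, and no member was called lower each time, where 14.9% of all genes were. On library totals the tally was 3 higher (EIF1, EIF2A and EIF3I) and 6 lower (EIF1AX, EIF2D, EIF3K, EIF4A1, EIF4A3 and EIF4G3) each time, where 5.65% of all genes were higher and 35.1% lower, and with the RLE, upper-quartile and DESeq2 scalings 12 or 13 members were higher and none lower. The 15 were EIF1, EIF5, EIF5B, EIF1AD, EIF2A, EIF6, EIF5A2, EIF4B and the eIF3 genes EIF3A, EIF3B, EIF3F, EIF3G, EIF3H, EIF3I and EIF3L. On library totals EIF5B, EIF6, EIF3B and EIF3L of these were called lower over ISRIB, and there EIF3B (adjusted p = 0.0561) and EIF3L (adjusted p = 0.0661) also missed the threshold with RLE factors. Leaving out 1 library lost the calls of EIF3B (adjusted p up to 0.221) and EIF3L (up to 0.21) over ISRIB, both at their highest without co-treatment library 3, of EIF5A2 there without co-treatment library 1 (0.0916), and of EIF3F over nelfinavir without nelfinavir library 3 (0.0501) or co-treatment library 3 (0.0522) or 4 (0.073).

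EIF2A had log2 fold changes of 0.85 ± 0.14, 1.11 ± 0.14 and 1.16 ± 0.14 (SE). EIF3I had 0.91 ± 0.076, 0.78 ± 0.076 and 0.79 ± 0.076. For EIF1 the rise was 1.56 ± 0.069 alone, 0.77 ± 0.068 over nelfinavir, which had itself raised the gene, and 1.12 ± 0.068 over ISRIB. EIF4E, EIF4E2 and EIF4G1 were called in opposite directions in different backgrounds, since all were lower with bortezomib alone and higher with bortezomib over nelfinavir, where library totals put them at -0.22, -0.15 and -0.12. The call of EIF4E there was lost with upper-quartile factors (adjusted p = 0.153) and no filter (0.0819), and without nelfinavir library 1 or 4 or co-treatment library 2 or 3 (0.0519 to 0.106), and that of EIF4E2 without co-treatment library 3 (0.109). Without libraries 3 and 4 of bortezomib with nelfinavir, 21 members were higher over nelfinavir, and the calls of EIF4E (log2 0.27, adjusted p = 0.0687) and EIF4E2 (0.10, adjusted p = 0.499) were lost there.

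**Figure D1:**
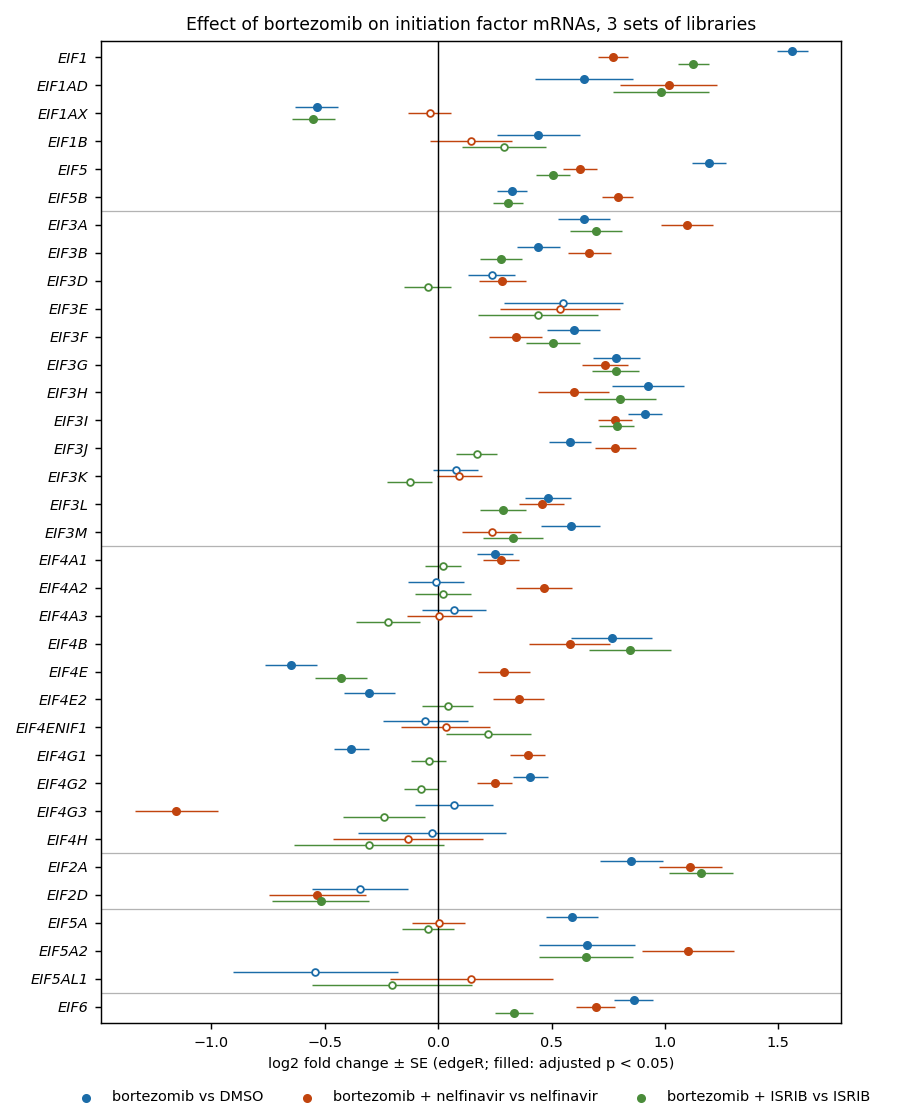
Log2 fold change (x axis, ± SE from edgeR) of 35 initiation factor genes (y axis, grouped by role) with bortezomib, against DMSO in blue, over nelfinavir in red and over ISRIB in green, with filled points for adjusted p under 0.05. EIF3I lies between 0.78 and 0.91 in all 3 comparisons, whereas EIF4E is at -0.65, 0.29 and -0.43 (over nelfinavir -0.22 on library totals).

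Nelfinavir alone changed fewer members than bortezomib: 5 were higher (EIF1, EIF5, EIF6, EIF3L and EIF3K) and 4 lower (EIF4G1, EIF5B, EIF4E and EIF1AX). This was 24.3% of the members, where 19.2% of all genes were called (10.4% higher and 8.84% lower). EIF1 rose 2.21-fold to 941, 833, 917 and 985 CPM (log2 1.14 ± 0.068 SE, adjusted p = 6.51e-15, edgeR). EIF5 rose 1.38-fold to 266, 266, 249 and 267 CPM (adjusted p = 1.67e-05) and EIF6 1.41-fold to 380, 340, 402 and 377 CPM (adjusted p = 4.01e-05). On the TMM scale the nelfinavir libraries of these genes lay between those of DMSO and bortezomib. On library totals only EIF5 kept this order. There the nelfinavir and bortezomib libraries overlapped for EIF1 (995 to 1169 against 1001 to 1118 CPM) and EIF6 (406 to 466 against 378 to 442 CPM).

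EIF5B was at 853, 790, 813 and 809 CPM with nelfinavir, 1.29-fold below DMSO (adjusted p = 7.19e-05). EIF4G1 fell 1.42-fold to 237, 244, 205 and 214 CPM (adjusted p = 7.13e-06) and EIF4E 1.27-fold to 44.2, 50.6, 47.9 and 44 CPM (adjusted p = 0.0257). Leaving out 1 library lost the call of EIF4E without DMSO library 3 or 4 or nelfinavir library 1 or 4 (adjusted p from 0.0647 to 0.0826) and that of EIF1AX without DMSO library 1 or nelfinavir library 2 or 4 (0.0725 to 0.0945). The call of EIF3K (adjusted p = 0.0399) was lost with RLE factors (0.0609), upper-quartile factors (0.0703), no filter (0.0833) and DESeq2 (0.0503), and without DMSO library 1, 2 or 4 or nelfinavir library 1 or 3 (0.0651 to 0.218).

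ISRIB alone against DMSO gave no call among the members in edgeR, and none among the 12685 genes (0%). At an unadjusted p under 0.05 there were 4 members and 702 genes. DESeq2 called 19 genes, none of them a member, and a model of only the 2 groups called 81 genes, with EIF4G3 (log2 -0.38, adjusted p = 0.0373) as the only member. The intervals were narrow for the genes that bortezomib moved most, from -0.049 to 0.24 on the log2 scale for EIF1 and from -0.17 to 0.14 for EIF5.

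Adding nelfinavir to bortezomib raised 12 members and lowered 2 against bortezomib alone, 37.8% of members where 28.9% of all genes were called (15.6% higher and 13.4% lower), and 11 members had groups without overlap (21.6% of all genes). EIF1 rose further to 1563, 1588, 1600 and 1521 CPM, its highest level in the series and above every bortezomib library (log2 0.35 ± 0.067 SE, adjusted p = 0.000156, edgeR). EIF5 did not follow (393, 415, 424 and 385 CPM; log2 -0.10, 95% interval -0.26 to 0.056).

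The cap-binding genes EIF4E, EIF4G1 and EIF4E2 were higher when nelfinavir was added to bortezomib, each against the same bortezomib libraries as above. EIF4E was at 57.3, 58.1, 61.1 and 51.8 CPM, 1.51-fold above bortezomib (adjusted p = 0.000229) and beside the DMSO mean of 59.2 CPM, although on library totals it stayed below DMSO (47.6 ± 2.29 against 71.5 ± 2.96 CPM, SD, n = 4 each). EIF4G1 was at 292, 318, 297 and 279 CPM (1.21-fold, adjusted p = 0.00698; 0.0599 in a model of only these groups). EIF4E2 was at 105, 108, 155 and 127 CPM (1.44-fold, adjusted p = 0.000652), with the highest value in library 3.

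These departures were tested as interactions, the effect of nelfinavir with bortezomib minus its effect without. EIF4E (log2 0.94 ± 0.16 SE, adjusted p = 6.36e-05), EIF4G1 (0.78 ± 0.11, adjusted p = 2.44e-06), EIF4E2 (0.66 ± 0.16, adjusted p = 0.00314), EIF1AX (0.50 ± 0.13, adjusted p = 0.00678), EIF5B (0.47 ± 0.093, adjusted p = 0.000431) and EIF3A (0.45 ± 0.16, adjusted p = 0.0425) were above zero. The call of EIF3A was lost on library totals (adjusted p = 0.0665) and without any 1 of DMSO libraries 1, 2 and 3, nelfinavir libraries 3 and 4, bortezomib libraries 3 and 4 and co-treatment library 3 (0.0581 to 0.115). EIF4G3, EIF1, EIF5A and EIF5 were below zero. These were 10 of the 37 members, where 19.7% of all genes were called (9.74% higher and 10% lower). For EIF1 the value was -0.79 ± 0.095 (adjusted p = 1.67e-07), since its rise with both drugs was smaller than the sum of the log2 rises with each.

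EIF4G3, a further eIF4G scaffold, fell 2.33-fold when nelfinavir was added to bortezomib, and was called with neither drug alone. Its levels were 50.0, 56.8, 50.7 and 43.0 CPM in bortezomib and 29.2, 23.4, 21.4 and 12.6 CPM in bortezomib with nelfinavir (log2 -1.22 ± 0.19 SE, adjusted p = 7.21e-06). The groups did not overlap, and the fall was -0.92 without libraries 3 and 4 (adjusted p = 0.000151) and -1.51 without libraries 1 and 2 (adjusted p = 1.99e-06). EIF5A also fell, 1.63-fold to 85.6, 100.8, 97.2 and 91.5 CPM (adjusted p = 1.84e-05), near the 101.6 ± 10.3 CPM of DMSO on the TMM scale and below it on library totals (78.2 ± 4.60 against 122.7 ± 11.8 CPM, SD, n = 4 each). EIF5A2 rose instead, 1.49-fold to 13.3, 15.9, 16.9 and 14.8 CPM (adjusted p = 0.0319), a call lost without libraries 3 and 4 (adjusted p = 0.136) and without co-treatment library 3 alone (0.0702) or bortezomib library 2 (0.084) or 4 (0.0673).

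Among the eIF3 genes EIF3A, EIF3J, EIF3K and EIF3L were called higher with the added nelfinavir. Without libraries 3 and 4 of the co-treatment, 9 members were higher and 2 lower, and EIF3A (log2 0.31, adjusted p = 0.0544), EIF3K (0.15, adjusted p = 0.336), EIF3L (0.22, adjusted p = 0.109) and EIF6 (0.20, adjusted p = 0.0937) were no longer called. Without libraries 1 and 2 instead, 14 were higher and 9 lower. EIF4A2, a paralog of EIF4A1, is a case where the libraries matter in the other direction: it had 149, 194, 119 and 112 CPM against 88 to 110 CPM in bortezomib (1.48-fold, adjusted p = 0.000888) and was not called without libraries 1 and 2 (adjusted p = 0.0557).

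**Figure D2:**
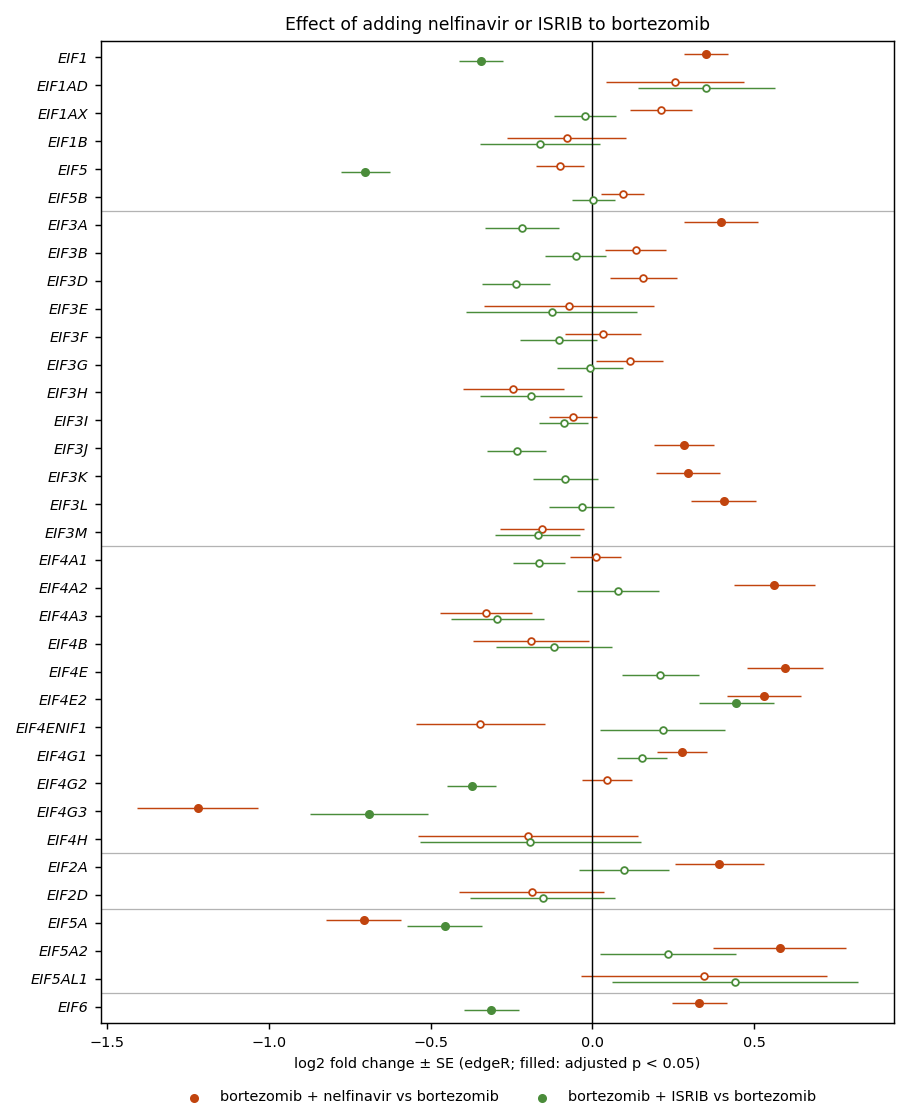
Log2 fold change (x axis, ± SE from edgeR) of 35 initiation factor genes (y axis, grouped by role) when nelfinavir (red) or ISRIB (green) was added to bortezomib, against bortezomib alone, with filled points for adjusted p under 0.05. EIF1 and EIF6 lie above zero with nelfinavir and below zero with ISRIB, and EIF5 reaches -0.70 with ISRIB.

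Adding ISRIB to bortezomib lowered 6 members and raised 1, 18.9% of members where 12.2% of all genes were called (6.89% higher and 5.34% lower), and 7 had groups without overlap (12.5% of all genes). Of all called genes 56.3% were higher, or 40.5% on library totals. The 6 were EIF5, EIF1, EIF4G2, EIF5A, EIF6 and EIF4G3. No eIF3 gene was called of 14, although all 14 lay below zero. Their median log2 fold change was -0.13, where that of all genes was 0.0063. On library totals all 14 were again below zero, with a median of -0.20 against -0.055 for all genes. There EIF3J was called lower (adjusted p = 0.0426, edgeR). EIF5 fell 1.63-fold to 244, 267, 263 and 291 CPM (log2 -0.70 ± 0.076 SE, adjusted p = 3.46e-08, edgeR), below every bortezomib library. These libraries lay above those of DMSO on the TMM scale, but at 202 to 229 CPM on library totals they overlapped the 223 to 237 CPM of DMSO. EIF1 fell 1.27-fold to 989, 970, 934 and 981 CPM (adjusted p = 0.000606).

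EIF4G2 fell 1.30-fold to 673, 677, 642 and 659 CPM (adjusted p = 0.000933), within the range of the DMSO libraries on the TMM scale and below it on library totals (518 to 556 against 705 to 839 CPM). EIF5A fell 1.37-fold to 95.5, 131, 109 and 110 CPM (adjusted p = 0.00703) and EIF6 1.24-fold to 387, 420, 399 and 347 CPM (adjusted p = 0.0125). The call of EIF6 was lost without bortezomib library 4 (adjusted p = 0.0657) or co-treatment library 4 (adjusted p = 0.0741). EIF4E2 was the only member called higher, at 119, 121, 123 and 103 CPM against 81.0 to 89.0 CPM (1.36-fold, adjusted p = 0.00848).

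As interactions with ISRIB, EIF5 (log2 -0.69 ± 0.11), EIF5A (-0.64 ± 0.16), EIF6 (-0.53 ± 0.12), EIF4G2 (-0.48 ± 0.11) and EIF1 (-0.44 ± 0.096, SE) were called lower and none higher. These were 13.5% of the members, where 4.82% of all genes were called (2.92% higher and 1.89% lower), so that 60.7% of the called genes were higher, or 49.4% on library totals. Their adjusted p ran from 7.43e-05 to 0.0158. Without library 3 of this co-treatment and libraries 3 and 4 of the other, 8 members were lower and 2 higher against bortezomib and 7 interactions were lower. EIF1 and EIF6 were the members called higher with added nelfinavir and lower with added ISRIB, both against the same bortezomib libraries.

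Related genes were compared with each other by the log2 ratio of their counts within each library, where scaling factors drop out. The ratios are compared between groups with two-sided exact permutation tests, and for 4 against 4 libraries the smallest possible p is 0.02857. Over 8 pairs and 7 comparisons, 17 of 56 tests had groups without overlap and that p, and after adjustment over the 56 tests none was under 0.05 (smallest adjusted p = 0.0941). EIF1B fell against EIF1 from -3.69, -3.80, -3.47 and -3.70 in DMSO to -4.68, -4.69, -4.78 and -4.97 in bortezomib, a difference of -1.12. Nelfinavir alone moved it by -0.93.

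EIF4G2 against EIF4G1 had log2 ratios of 0.77, 0.94, 1.19 and 1.16 in DMSO and 1.61, 1.75, 1.84 and 2.05 in bortezomib, a difference of 0.80. With ISRIB added to bortezomib the ratio was 1.25, 1.29, 1.24 and 1.37, below every bortezomib library. EIF4G3 against EIF4G1 fell by 1.54 when nelfinavir was added to bortezomib, the largest difference of a co-treatment from bortezomib among the 8 pairs. EIF2D against EIF2A fell in all 3 bortezomib comparisons, by 1.18, 1.75 and 1.71, and EIF5A2 against EIF5A rose by 1.31 when nelfinavir was added. In each of these the libraries of the groups compared did not overlap.

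**Figure D3:**
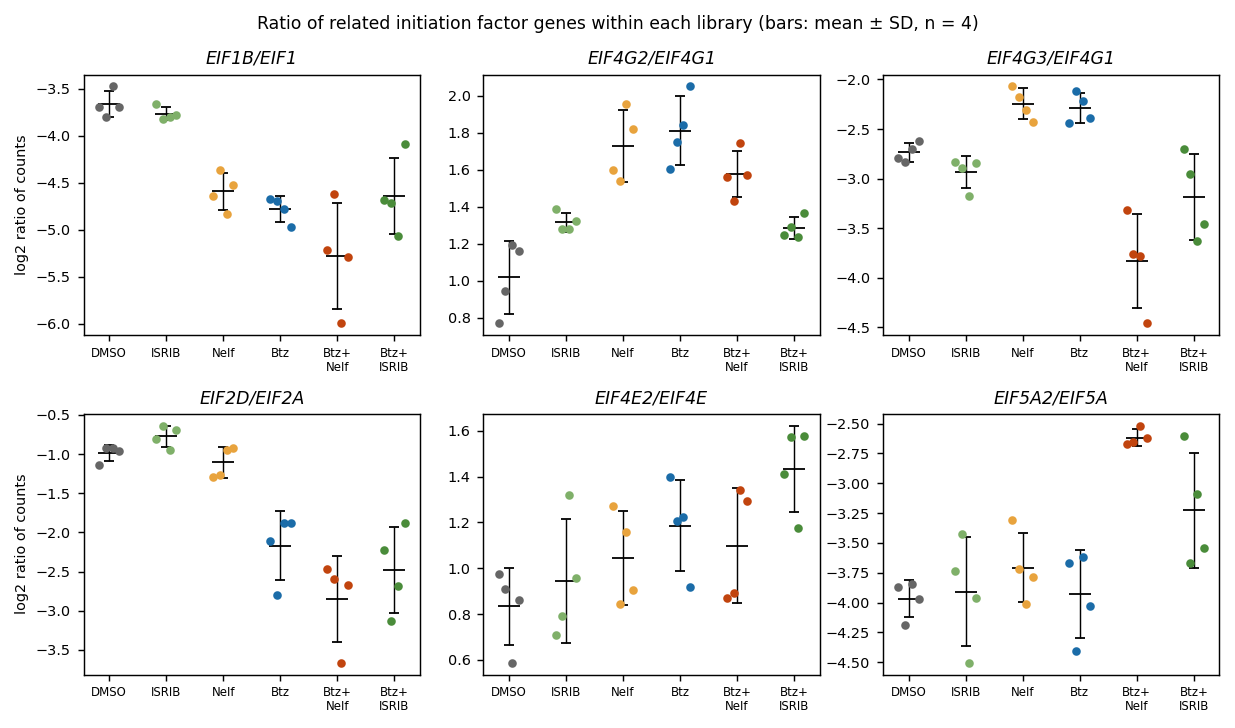
Log2 ratio of the counts of 6 pairs of related genes within each library (y axes) in the 6 treatment groups (x axes), with a point for each library and bars for the mean ± SD (n = 4). EIF1B against EIF1 lies at -3.80 to -3.47 in DMSO and at -4.97 to -4.68 in bortezomib, without overlap.

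Promoters are shown for EIF4E and EIF4G1, the cap-binding genes that fell with either drug and rose when nelfinavir was added to bortezomib. The windows run from 250 bases before to 50 bases after the gene start and are from RefSeq (GRCh38.p14), where 31 of the members were matched. Capitals mark the E-box CACGTG, which reads the same on both strands. The EIF4E window is chr4:98929084-98929383 on the minus strand and the EIF4G1 window chr3:184314356-184314655 on the plus strand.
EIF4E: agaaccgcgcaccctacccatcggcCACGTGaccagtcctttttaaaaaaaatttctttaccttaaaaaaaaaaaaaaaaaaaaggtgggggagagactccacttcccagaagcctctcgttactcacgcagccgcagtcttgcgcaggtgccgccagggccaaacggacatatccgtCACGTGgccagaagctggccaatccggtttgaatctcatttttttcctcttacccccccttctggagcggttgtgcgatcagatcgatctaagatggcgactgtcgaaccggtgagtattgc
EIF4G1: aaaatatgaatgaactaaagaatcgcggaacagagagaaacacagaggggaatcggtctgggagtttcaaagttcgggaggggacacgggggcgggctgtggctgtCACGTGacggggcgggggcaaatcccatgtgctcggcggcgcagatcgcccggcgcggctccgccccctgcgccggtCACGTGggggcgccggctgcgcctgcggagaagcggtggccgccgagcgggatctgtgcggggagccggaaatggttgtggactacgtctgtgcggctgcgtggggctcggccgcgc
Each window holds 2 E-boxes. In all, 9 of the 31 member promoters (29.03%) held at least 1, where 2030 of 27305 promoters (7.43%) did. The other 7 were those of EIF1B, EIF3F, EIF3K, EIF4A3, EIF4B, EIF4H and EIF5A2. With bortezomib EIF1B, EIF3F, EIF4B and EIF5A2 of these were called higher and EIF3K, EIF4A3 and EIF4H were not called, while EIF4E and EIF4G1 were lower.

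The promoters of EIF1 and EIF5 held no E-box. No member window held the C/EBP-ATF composite site (searched as TTGCATCA or TGATGCAA or TGATGAAA, in 2.0% of all promoters), the cAMP response element TGACGTCA (1.98%) or the heat shock element (0.49%). All motifs were searched on both strands. These counts say only which letters the windows hold.

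The other translation genes that surround these factors were followed from a list of 35, of which 31 were tested. With bortezomib 18 of them were higher and 6 lower, or 77.4% called where 53.4% of all genes were. On library totals 5 were higher and 11 lower. In the eIF2 group the kinase genes EIF2AK1 (log2 0.70), EIF2AK2 (0.61) and EIF2AK3 (1.08) were higher and EIF2AK4 (-0.69) was lower. The eIF2 subunits EIF2S1 (0.39), EIF2S2 (0.86) and EIF2S3 (0.54) were higher. On library totals EIF2AK2 (0.12), EIF2S1 (-0.10) and EIF2S3 (0.042) were not called. EIF2AK1 (0.20), EIF2AK3 and EIF2S2 stayed higher there and EIF2AK4 lower. EIF4EBP1, which binds and withholds eIF4E, was 1.56 higher on the log2 scale with bortezomib and 2.04 higher with nelfinavir, while EIF4EBP2, its relative, was lower with bortezomib (-0.45, adjusted p = 0.00336) and not called with nelfinavir (0.15, adjusted p = 0.479). Of the re-initiation factors MCTS1 (-0.75) and DENR (-0.26) were lower with bortezomib.

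When ISRIB was added to bortezomib, 1 of the 31 was higher (EIF2AK3) and 2 were lower (EIF2S2 and EEF1B2). That was 9.68% called, below the 12.2% of all genes. EIF2S2 fell by 0.46 on the log2 scale. Adding nelfinavir raised 7 of the 31 and lowered 2, or 29.0% called, about the 28.9% of all genes. Among those raised were the elongation factors EEF1B2, EEF1D and EEF2 with values of 0.20, 0.45 and 0.40.

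The libraries that stood apart had member values of their own. Of 32 members counted well enough for the axis, 10 lay in the 10% of all genes that fell furthest along it: EIF4H, EIF3E, EIF1AD, EIF2D, EIF4B, EIF3H, EIF1B, EIF4A3, EIF3M and EIF4G3. EIF4H, a cofactor of the eIF4A helicase, had 33.8, 26.8, 6.68 and 9.0 CPM in the 4 libraries of bortezomib with nelfinavir and 19.4, 22.2, 5.89 and 28.9 CPM in those of bortezomib with ISRIB. EIF3E had 257, 300, 103 and 107 CPM in the first and 228, 209, 80.6 and 220 CPM in the second. In both genes library 3 of each co-treatment and library 4 of the nelfinavir one were low together.

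EIF3E was accordingly at -0.07 on the log2 scale in bortezomib with nelfinavir against bortezomib, at 0.48 without libraries 3 and 4 (adjusted p = 0.0259) and at -0.89 without libraries 1 and 2 (adjusted p = 0.00587). EIF1, EIF5, EIF4G1 and EIF5B were not among these genes, and their 4 libraries of either co-treatment stayed close together. What separates these libraries was not tested.

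**Figure D4:**
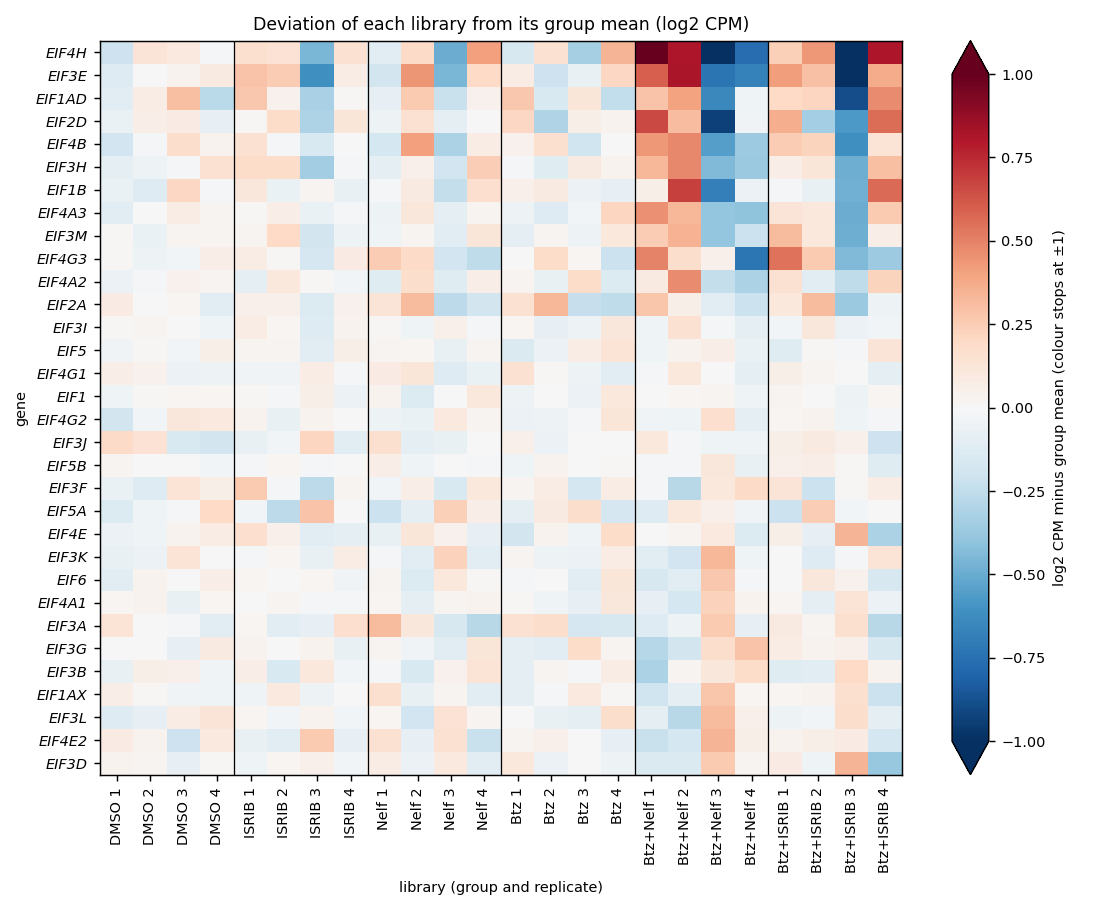
Deviation of each library from its group mean in log2 CPM (colour, red above and blue below the mean) for 32 initiation factor genes (rows, ordered by their position on the within-group axis) in 24 libraries (columns). EIF4H and EIF3E at the top are low in libraries 3 and 4 of bortezomib with nelfinavir and in library 3 of bortezomib with ISRIB, where EIF4H had 6.68, 9.0 and 5.89 CPM.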

How the data were processed

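The 24 libraries of HepG2 RNA were made with the QuantSeq 3′ mRNA FWD kit, which counts fragments near the 3′ ends of mRNAs. Per the labels and the study's methods, reads were trimmed with cutadapt 2.8 and run through the nf-core RNA-Seq workflow, with STAR as aligner, hg19 (GRCh37) as genome and the Ensembl annotation of that build for the counts. The counting program within the workflow and its strand setting are not named in those sources. The authors deposited unnormalized read counts per gene, whose columns were matched to samples by title.

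Genes were kept by filterByExpr (minimum count 5, minimum total 25). All 24 libraries entered a single model of the 6 groups in edgeR 4.0.16 (R 4.3.3, limma 3.58.1) with TMM factors, and contrasts were tested by the quasi-likelihood F test with Benjamini-Hochberg adjustment over 12685 genes. Fold changes carry SEs taken as the log2 fold change over the root of F, and intervals use 18 residual degrees of freedom. Levels are TMM-scaled CPM. Log2 ratios of related genes used counts with a pseudocount of 0.5 and exact permutation tests in scipy 1.17.1 (Python 3.11.15). Near copies were searched with BLAST 2.17.0.

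The members and the gene lists were chosen with earlier results of these data known. Values in each library are given for members called with an absolute log2 fold change of at least 1, called in an interaction, or among the 3 called members of smallest p in each direction of a comparison. Alternatives were RLE, upper-quartile and no scaling factors, mitochondrially encoded genes left out, other filters, DESeq2 1.42.0, a model restricted to the compared groups, a replicate block and leaving out libraries. The test was checked on simulated data, with changed genes drawn from all those tested. Between bortezomib and DMSO it called 121 of 200 genes changed 2-fold and 83 of 200 changed 1.5-fold. The unchanged genes called were 10 and 4. The share of 3′ counts on a gene says nothing of its protein, and counting error is only part of the spread.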

Additional observations from a re-analysis of the deposited data

Results flagged for a closer look

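Of 210 sets of 4 libraries of a member in a group, 11 had 1 library that lay far from the other 3, where chance alone flags about 1 in 20. Library 3 of ISRIB accounted for 4 of them: it had 134.9 CPM of EIF4E2 (104.9 to 107.4 in the other libraries), 39.1 of EIF2A (44.2 to 44.6), 16.8 of EIF4H (25.4 to 25.7) and 25.97 of EIF5AL1 (5.30 to 7.61). EIF3E had 80.59 CPM in library 3 of bortezomib with ISRIB, below 209 to 228 in the others. EIF3A had 1439 CPM in library 3 of bortezomib with nelfinavir, above 1099 to 1157.

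In the remaining sets the gaps were smaller. EIF3J had 254.5 CPM (304 to 312 in the others) and EIF3G 110.2 CPM (126 to 129) in library 4 of bortezomib with ISRIB. EIF3M had 124.1 CPM in DMSO library 2 (131.5 to 132.6), EIF5 had 248.9 CPM in nelfinavir library 3 (266.1 to 266.9) and EIF4A1 had 332 CPM in nelfinavir library 2 (359 to 363).

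The effect of bortezomib differed by background in 15 tests of the difference (edgeR, log2). Its signed log2 value with nelfinavir minus that without was 0.9381 for EIF4E, 0.7782 for EIF4G1 and 0.6588 for EIF4E2. It was 0.4981 for EIF1AX, 0.4657 for EIF5B and 0.4543 for EIF3A. Below zero were EIF4G3 (-1.224), EIF1 (-0.7909), EIF5A (-0.5888) and EIF5 (-0.5696). These signs do not give the size of the effect. EIF4G3 was called lower with bortezomib over nelfinavir and not called against DMSO, while EIF1AX was called lower against DMSO and not called over nelfinavir. With ISRIB the differences were -0.6881 for EIF5, -0.6353 for EIF5A, -0.5285 for EIF6, -0.4819 for EIF4G2 and -0.437 for EIF1.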

How the results depend on the processing

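Of 114 called member values 59 kept their direction and call under every alternative, and of 219 values not called 174 stayed so. The scaling had the widest reach. With library totals alone, bortezomib raised 7 members and lowered 14, over nelfinavir 8 and 9, and over ISRIB 3 and 19. On that scale the bortezomib log2 fold change turned to -0.43 for EIF4G3, -0.17 for EIF5B, -0.056 for EIF1B, -0.057 for EIF3B, -0.091 for EIF4G2, -0.25 for EIF4A1, -0.43 for EIF4A3, -0.42 for EIF3K, -0.26 for EIF3D and -0.014 for EIF3L. Over nelfinavir it turned to -0.15 for EIF4E2, -0.12 for EIF4G1, -0.046 for EIF4A2, -0.22 for EIF4E, -0.16 for EIF3F, -0.26 for EIF4G2, -0.51 for EIF5A, -0.23 for EIF4A1, -0.51 for EIF4A3, -0.41 for EIF3K, -0.47 for EIF4ENIF1, -0.22 for EIF3D and -0.050 for EIF3L. Over ISRIB it turned to -0.23 for EIF5B, -0.50 for EIF4E2, -0.52 for EIF4A2, -0.26 for EIF3B, -0.034 for EIF3F, -0.22 for EIF3M, -0.037 for EIF5, -0.37 for EIF3J, -0.52 for EIF4A1, -0.21 for EIF6 and -0.25 for EIF3L. Scaling decides these signs, and no value here measures RNA per cell.

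Without the 3 co-treatment libraries that stand apart, EIF3E was at 0.48 (bortezomib with nelfinavir against bortezomib) and EIF4H at 0.52 (against nelfinavir), and 2 members were higher with added ISRIB. Without libraries 1 and 2 of bortezomib with nelfinavir, EIF4A3 was at -0.44 against nelfinavir, and the lower counts became 9 against bortezomib, 4 against nelfinavir and 10 in the interaction. A model of only the groups compared gave 1 lower member with ISRIB and 1 lower with bortezomib over nelfinavir. DESeq2 gave 1 interaction with ISRIB as higher.

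On leaving out 1 library, the higher counts ranged from 18 to 21 and the lower from 3 to 4 with bortezomib, from 4 to 6 and from 2 to 4 with nelfinavir (2 without nelfinavir library 4), from 10 to 13 and from 2 to 3 with nelfinavir added to bortezomib, and from 1 to 2 (2 without co-treatment library 3) and from 5 to 7 with ISRIB added. Over nelfinavir they ranged from 19 to 23 and from 1 to 2 (1 without nelfinavir library 2 or 4 or co-treatment library 3 or 4), and over ISRIB from 13 to 16 and from 2 to 4. Interactions ranged from 5 to 8 and stayed at 4 lower with nelfinavir, and from 0 to 1 (1 without bortezomib library 1) and from 5 to 6 with ISRIB. Ratios without overlap were 17 to 20.

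Libraries with a shared replicate number deviated together more often than others (13 of 60 pairs correlated over 0.1, against 12 of 180), and 11 of 24 libraries correlated best with their own number. Since not every such pair did and the labels tie the numbers to no batch, the numbers were not taken as pairs. With the replicate block 6 values became called and none lost its call, and 1 interaction with ISRIB was higher.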
